A study of Homo sapiens with 12 samples.

Results

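Transcript levels of 34 genes of homologous recombination, the Fanconi anaemia pathway and the DNA damage checkpoint were examined in A375 cells, a human melanoma line that carries a BRAF mutation. The genes were taken by name, and all 34 were found among the 26475 rows of the expected-count table. All 34 passed the filter on low counts, which kept 15443 genes. Cells had been exposed for 24 h to GSK343 and XL413 together at 1 µM each, to 1 µM XL413, to 1 µM GSK343, or to DMSO, the solvent. XL413 inhibits CDC7, the kinase that with DBF4 fires licensed replication origins, and GSK343 inhibits EZH2, the histone methyltransferase of Polycomb repressive complex 2. Each of the 4 groups had 3 libraries, labelled as biological replicates, and all came from this single line grown in serum-containing medium.

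Homologous recombination repairs a broken chromosome by copying the sister chromatid. The MRE11-RAD50-NBN complex and RBBP8 start to trim the broken end, EXO1 and the helicase BLM extend the trimming, and BRCA1, PALB2 and BRCA2 load the recombinase on the exposed strand with the help of its paralogs. The Fanconi core complex places ubiquitin on FANCD2 and FANCI at crosslinks and stalled forks, and the scaffold SLX4 brings in structure-specific nucleases. ATM and ATR sense breaks and single-stranded DNA, and their substrates CHEK2 and CHEK1 hold the cell cycle. Many of these genes are transcribed most in late G1 and S phase, so that in bulk RNA a change in the share of cells in S phase and a change of RNA per cell cannot be told apart.

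The libraries held 31553205 to 39079931 expected counts, and the members 106 to 5290.33 counts in a library. The cells had the melanoma markers SOX10 (296 to 370 CPM, counts relative to the size of the library) and PRAME (153 to 162 CPM), with AXL at 337 to 486 CPM. The pigment genes TYR, at 0 in 12 of 12 libraries, and MLANA, at 0.204 CPM or less, were absent or nearly so, and so were the epithelial marker EPCAM (up to 0.224 CPM) and the leukocyte marker PTPRC (up to 0.0875 CPM). Not all markers of other cell types were absent. The epithelial marker KRT14 had 18.2 to 24.3 CPM and the leukocyte marker CD68 42.1 to 48.9 CPM. Of the fibroblast markers, COL1A1 had 52.5 to 113, COL1A2 55.6 to 103 and COL3A1 20.1 to 37.7 CPM. One library stood apart. Replicate 2 of GSK343+XL413 deviated from the other replicates of its group with an SD of 0.254 on the log2 scale over the 34 members, against 0.0823 to 0.151 for each of the other 11 libraries.

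The promoters of the 4 members that were called in at least 1 comparison are shown for orientation, since 3 of them fell and 1 rose. They are RefSeq sequences on GRCh38.p14, written 5′ to 3′ on the strand of the gene, from 250 bases before to 50 bases after the transcript start. Capitals mark the E2F words TTTGGCGC, TTTCGCGC, TTCCCGCC and TTGGCGGGA, the CCAAT box and the CHR word TTTGAA, each searched on both strands. FANCA lies at chr16:89816598-89816897 on the minus strand, SLX4 at chr16:3611557-3611856 on the minus strand, RAD54L at chr1:46247438-46247737 on the plus strand and CHEK2 at chr22:28741771-28742070 on the minus strand.
FANCA: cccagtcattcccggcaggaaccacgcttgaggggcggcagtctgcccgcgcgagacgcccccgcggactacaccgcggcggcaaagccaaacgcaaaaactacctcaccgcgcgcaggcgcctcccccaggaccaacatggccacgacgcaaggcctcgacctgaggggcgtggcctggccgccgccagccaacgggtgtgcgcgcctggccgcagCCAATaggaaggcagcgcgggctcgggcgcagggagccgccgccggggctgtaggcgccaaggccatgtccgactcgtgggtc
SLX4: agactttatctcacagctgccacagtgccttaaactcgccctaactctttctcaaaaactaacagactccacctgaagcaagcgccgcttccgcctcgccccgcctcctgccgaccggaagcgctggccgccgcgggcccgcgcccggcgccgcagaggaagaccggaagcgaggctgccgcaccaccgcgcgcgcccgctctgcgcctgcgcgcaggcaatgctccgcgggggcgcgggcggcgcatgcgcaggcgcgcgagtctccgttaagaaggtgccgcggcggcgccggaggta
RAD54L: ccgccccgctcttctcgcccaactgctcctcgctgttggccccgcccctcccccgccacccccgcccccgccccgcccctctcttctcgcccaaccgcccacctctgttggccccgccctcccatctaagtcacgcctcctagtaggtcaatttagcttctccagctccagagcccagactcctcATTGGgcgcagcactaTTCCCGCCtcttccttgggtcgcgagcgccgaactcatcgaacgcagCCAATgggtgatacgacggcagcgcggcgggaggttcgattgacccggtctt
CHEK2: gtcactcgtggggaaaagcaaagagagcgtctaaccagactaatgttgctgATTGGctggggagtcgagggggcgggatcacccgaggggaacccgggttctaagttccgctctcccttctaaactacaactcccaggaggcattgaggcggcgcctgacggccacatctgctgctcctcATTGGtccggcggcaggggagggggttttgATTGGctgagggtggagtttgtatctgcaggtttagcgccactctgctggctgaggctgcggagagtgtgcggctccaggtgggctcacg
RAD54L has an E2F word, TTCCCGCC, from position -49 to -42, counting the first transcribed base as 0, and 2 CCAAT boxes. CHEK2 has 3 CCAAT boxes, all on the opposite strand (ATTGG), and FANCA has 1, while none of the searched words was found in the window of SLX4.

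Of the 34 members, 31 had a promoter in the RefSeq table. An E2F word was present in 11 of them (35.5%), against 4.54% of all 27305 promoters and 6.15% of the 15842 of protein-coding genes. The 11 are BLM, BRIP1, EXO1, FANCC, FANCD2, FANCL, RAD51AP1, RAD52, RAD54L, XRCC2 and XRCC3. A CCAAT box was present in 12 (38.7%, against 35.7% of all promoters) and the CHR word in 3 (9.7%, against 15.4%). The split of members by E2F word was made after their changes had been seen, and is given as a description. With GSK343 against DMSO, 10 of the 11 members with the word and 11 of the 20 without it had a log2 fold change below 0, with medians of −0.083 and −0.03. With XL413 against DMSO, 5 of 11 and 13 of 20 were below 0. With GSK343+XL413 against DMSO it was 9 of 11 with the word (median −0.0924) and 16 of 20 without it (median −0.111), so the order of the medians was the other way round.

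In DMSO cells the levels per kb of the longest annotated transcript spanned from 30.1 CPM per kb for FANCI to 1.29 CPM per kb for RAD51B. In the core complex FANCG was highest (18.3 ± 0.892 CPM per kb, SD, n = 3), next to FANCL, the ubiquitin ligase (17.8 ± 1.41). FANCM, the translocase that anchors the complex on DNA, was lowest (2.03 ± 0.0689). FANCI stood above its partner FANCD2 (9.77 ± 0.195). Partners of 1 complex thus differed several-fold in CPM per kb. These values take the longest annotated transcript as the one expressed, which was not tested. Exons of FANCI also overlap those of POLG on the opposite strand, and exons of FANCL overlap those of VRK2 in the same way. The expected counts of FANCI and FANCL were not whole in any of the 12 libraries. Among the resection and BRCA1 genes NBN had the highest mean (22 ± 1.37), with a range that overlapped EXO1, and BARD1, the partner of BRCA1, was lowest (2.07 ± 0.0837), well under BRCA1 itself (12.4 ± 0.0249). Of the recombinase partners RAD51AP1 was highest (19.5 ± 0.911) and RAD51B lowest. CHEK1 (18.7 ± 0.373) was above CHEK2 (6.96 ± 0.616), and ATR (7.48 ± 0.301) above ATM (2.88 ± 0.00633). In both kinase pairs the effector or sensor of the ATR arm had more mRNA per kb than that of the ATM arm. Of the 33 neighbouring pairs in this order, 21 had overlapping ranges over their 3 libraries and 12 did not. The per-kb value of RAD51D is doubtful, since its longest transcript, of 9988 nucleotides, shares exons with the readthrough gene RAD51L3-RFFL.

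**Figure D1:**
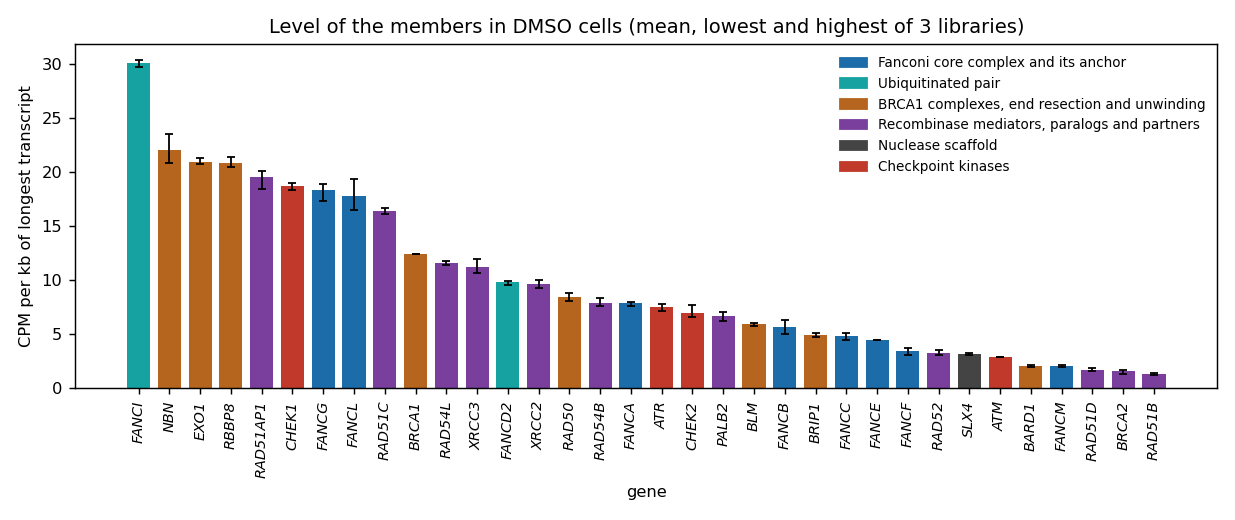
Levels of the 34 members in DMSO cells in CPM per kb of longest transcript (vertical axis), from the highest to the lowest, coloured by role. Bars are means and whiskers the lowest and highest of 3 libraries; FANCI is the highest at 30.1 and RAD51B the lowest at 1.29.

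GSK343+XL413 against DMSO had the most calls. FANCA, SLX4 and RAD54L fell and CHEK2 rose, 4 of 34 members, or 11.8%, at an adjusted p under 0.05 (edgeR quasi-likelihood test, Benjamini-Hochberg over all tested genes). Of all tested genes 13.9% were called, so the share among the members was near the background. By direction, 3 members were lower and 1 higher, against 7.25% and 6.69% of all genes. Their changes were between 0.69-fold and 1.27-fold. Of all 34 estimates 27 were below 0, with a median log2 fold change of −0.10, against a median of 0.00601 over all genes. Without replicate 2 of GSK343+XL413 the members' median was −0.03, and 3 members were called, against 15% of all genes.

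FANCA, a subunit of the Fanconi core complex (ENSG00000187741.14, GRCh38 chromosome 16, 89737549 to 89816657, minus strand), had 34.6, 32.5 and 36 CPM with GSK343+XL413. It had 39.6, 40.6 and 37.7 CPM with XL413, 40.4, 40.7 and 40.1 CPM with GSK343, and 43.6, 43.4 and 41.5 CPM with DMSO. Every library of each treated group lay below every DMSO library, and the 3 GSK343+XL413 libraries lay below all of the other 9. The log2 fold change of GSK343+XL413 against DMSO was −0.32 (SE 0.048, adjusted p = 0.00169), and −0.28 without replicate 2. The call was kept when any one of the 12 libraries was left out. Exons of FANCA overlap those of ZNF276 on the opposite strand, and the strand setting of the counting is not given in the sources used here.

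SLX4, the nuclease scaffold (ENSG00000188827.10, chromosome 16, 3581181 to 3611598, minus strand), had 17.5, 11.6 and 18.3 CPM with GSK343+XL413. It had 20.7, 18.8 and 18.4 CPM with XL413, 19.2, 22.3 and 20.7 CPM with GSK343, and 22.7, 23.7 and 22.3 CPM with DMSO. The low value of 11.6 CPM belongs to replicate 2, and the other 2 GSK343+XL413 libraries were also below every library of the other 3 groups. The log2 fold change against DMSO was −0.54 (SE 0.128, adjusted p = 0.0156). Without replicate 2 it was −0.35 (adjusted p = 0.00437), and of the 12 fits that each left out a library, the call was lost in the one without DMSO replicate 2 (adjusted p = 0.0627).

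RAD54L, a motor protein that works with the recombinase on chromatin (ENSG00000085999.11, chromosome 1, 46247688 to 46278473, plus strand), had 33.3, 29.8 and 32 CPM with GSK343+XL413. It had 34.6, 34.4 and 35.5 CPM with XL413, 31, 30.6 and 34.3 CPM with GSK343, and 36.8, 35.4 and 35.7 CPM with DMSO. The GSK343+XL413 and the GSK343 libraries were all below the DMSO libraries. The log2 fold change of GSK343+XL413 against DMSO was −0.18 (SE 0.0548, adjusted p = 0.0425). This call was weak: it held in 3 of the 12 fits with a library removed, and without replicate 2 of GSK343+XL413 the change was −0.14 (adjusted p = 0.0976). Its exons overlap those of LRRC41 on the opposite strand.

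CHEK2, the checkpoint kinase downstream of ATM (ENSG00000183765.21, chromosome 22, 28687743 to 28742422, minus strand), had 17.3, 18.2 and 16.5 CPM with GSK343+XL413. It had 17, 16.3 and 17.1 CPM with XL413, 14, 14.1 and 13.5 CPM with GSK343, and 15.1, 13 and 13 CPM with DMSO. All 6 libraries that had received XL413 were above all 6 that had not. The log2 fold change of GSK343+XL413 against DMSO was 0.34 (SE 0.0678, adjusted p = 0.00722), and 0.31 without replicate 2. Leaving out any of the 12 libraries did not end the call. RefSeq places the start of CHEK2 inside the outermost start of GENCODE, so the promoter shown above belongs to 1 of its annotated starts.

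**Figure D2:**
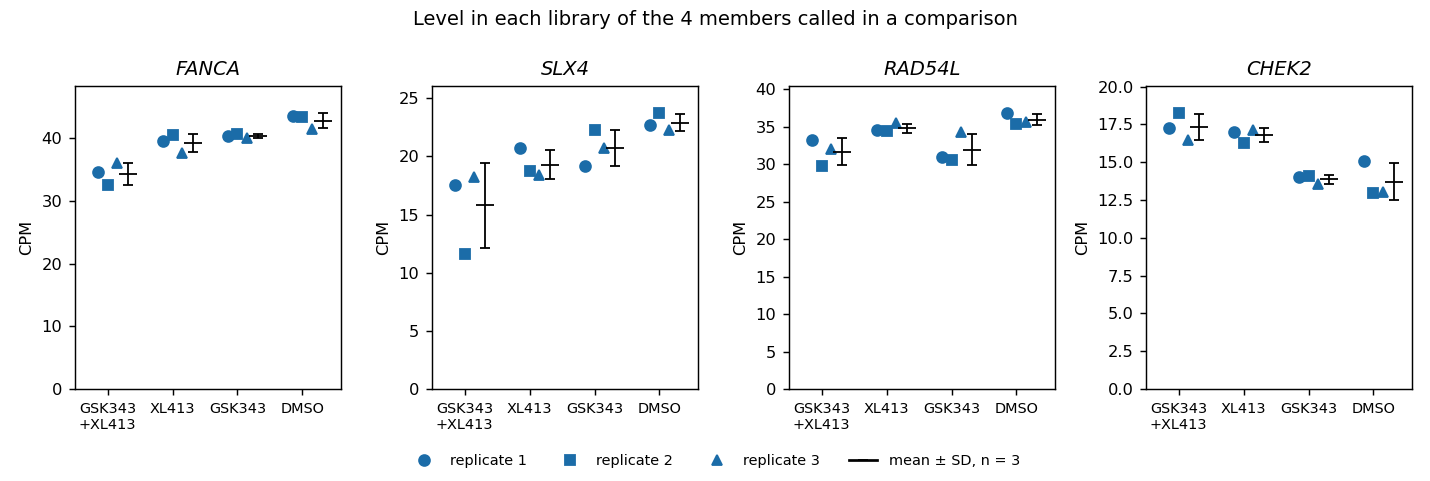
CPM (vertical axis, from 0) of FANCA, SLX4, RAD54L and CHEK2 in each of the 12 libraries, by group. Symbols mark the replicate number and the bars mean ± SD of 3 libraries; FANCA is lowest with GSK343+XL413, and CHEK2 is higher in the 6 libraries with XL413, at 16.3 CPM or more, than in the 6 without it.

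When only the GSK343+XL413 and DMSO libraries were fitted, the calls over all genes fell from 2152 to 657. FANCA alone of the 34 members was called. CHEK2 then had an adjusted p of 0.0594, SLX4 of 0.0825 and RAD54L of 0.102. The other 30 members did not pass the test in GSK343+XL413 against DMSO. Their estimates ran from −0.33 for BRCA2 to 0.23 for RAD51B. In the core complex, FANCM had −0.23 (SE 0.0802, adjusted p = 0.0755). FANCL had 0.10 (SE 0.104), and −0.02 without replicate 2 of GSK343+XL413. FANCD2 and FANCI, the ubiquitinated pair, had −0.04 and −0.08, with 95% intervals that included 0, and 0.03 and 0.02 without that library. In the resection and BRCA1 group BRIP1, a helicase bound to BRCA1, had −0.28 (SE 0.0906, adjusted p = 0.0598), and −0.15 without replicate 2 (adjusted p = 0.117). BRCA1 itself had −0.19 (SE 0.0882, adjusted p = 0.163), and −0.06 without it (adjusted p = 0.438). For BRCA2, the loader of the recombinase, the interval from −0.64 to −0.01 was wide (95%, adjusted p = 0.155). ATM, ATR and CHEK1 had −0.08, −0.16 and −0.02, and 0.09, 0.01 and 0.01 without replicate 2. All 3 GSK343+XL413 libraries lay below all 3 DMSO libraries for 10 members and above them for 2, CHEK2 and RAD51C. Of all genes 17.4% lay entirely below and 16.3% entirely above.

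**Figure D3:**
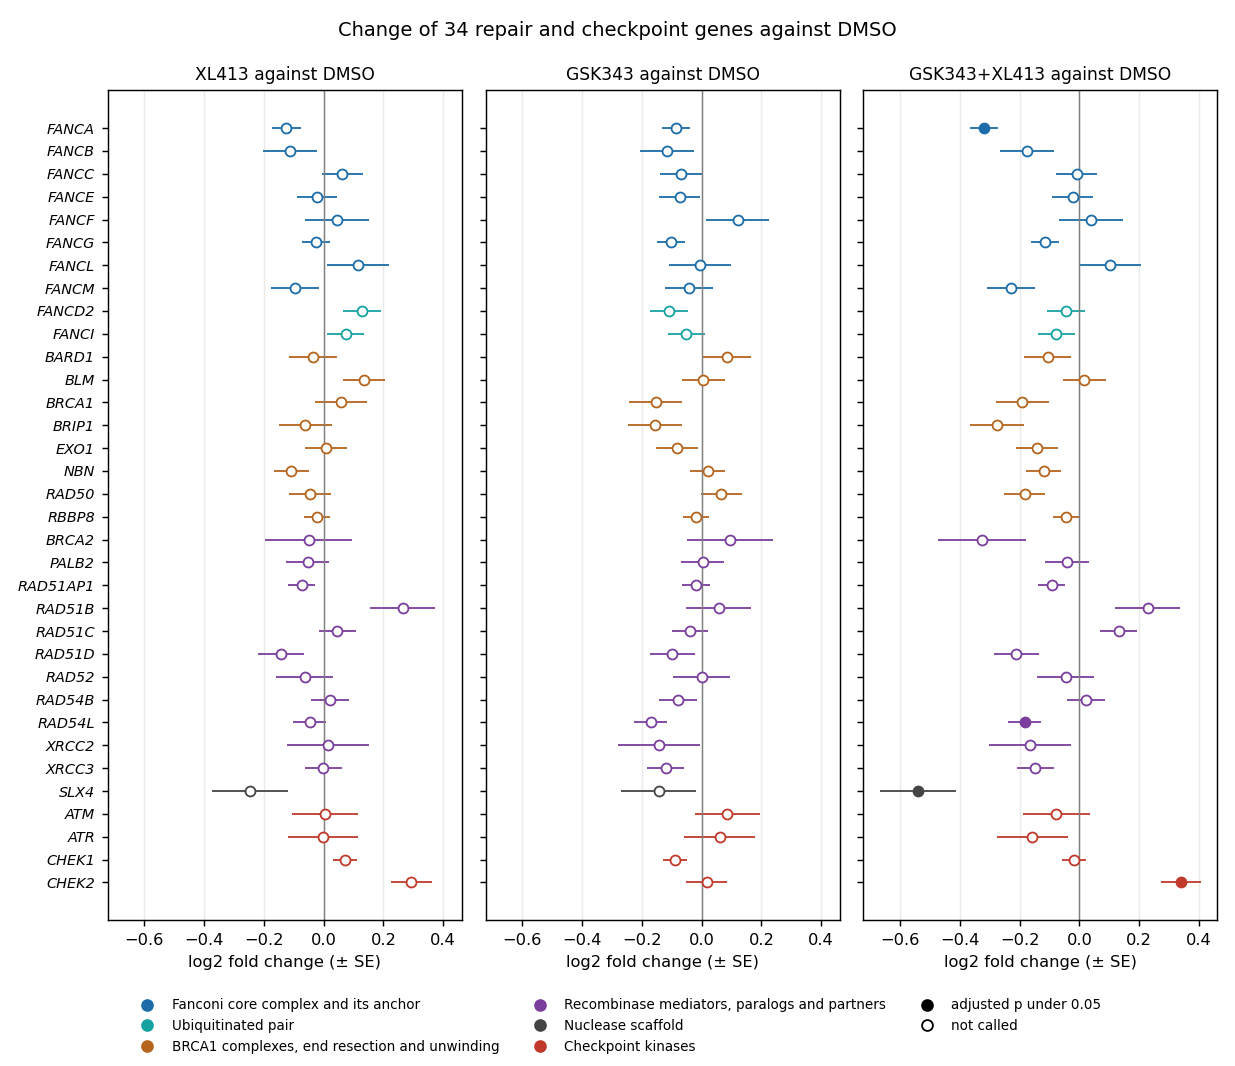
Log2 fold change ± SE (horizontal axis) of each of the 34 members with XL413, GSK343 and GSK343+XL413 against DMSO, grouped and coloured by role; filled points were called. FANCA, RAD54L and SLX4 are filled below 0 and CHEK2 above 0 with GSK343+XL413, and none is filled with either compound alone.

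Part of this pattern rests on replicate 2 of GSK343+XL413. Without it the estimate turned its sign in 9 of the 34 members (FANCC, FANCD2, FANCF, FANCI, FANCL, XRCC2, ATM, ATR and CHEK1) and moved by over 1.5 times in 15 others. Its deviation from replicates 1 and 3 followed transcript length, with a Spearman rho of −0.684 over the 34 members and −0.526 over 14968 genes; the points share a library, so no p is given. A length trend was also present in other libraries. GSK343 replicate 1 had a rho of −0.616 over the members and −0.334 over all genes with a length, and GSK343 replicate 3 of 0.563 and 0.404. Each of these GSK343 libraries was set against a mean that holds the other, so their values are not independent. Replicates 1 and 3 of GSK343+XL413 had 0.561 and 0.628 over the members, each being set against a mean that holds replicate 2. The members' deviations had an SD of 0.0938 in GSK343 replicate 1 and 0.113 in GSK343 replicate 3, so replicate 2 of GSK343+XL413 stood apart by the size of its deviations and not by the presence of a trend. XRCC2 deviated by −0.70 on the log2 scale, SLX4 by −0.62, BRCA2 by −0.61, ATR by −0.57 and ATM by −0.54. The short FANCL transcript deviated by 0.34. XRCC2, with a longest transcript of 3067 nucleotides, is an exception to the order by length. BRCA2 had 17.4, 11 and 16.2 CPM in the 3 GSK343+XL413 libraries, against 16.2, 19.7 and 19.7 CPM with DMSO. Its log2 fold change was −0.33 with the library and −0.14 without it. The estimate of XRCC2 was −0.17 with and 0.04 without it. For the 17 members with longer transcripts the median change was −0.158 with and −0.07 without it, and for the 17 with shorter ones −0.05 and −0.02. What made the library differ was not tested.

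**Figure D4:**
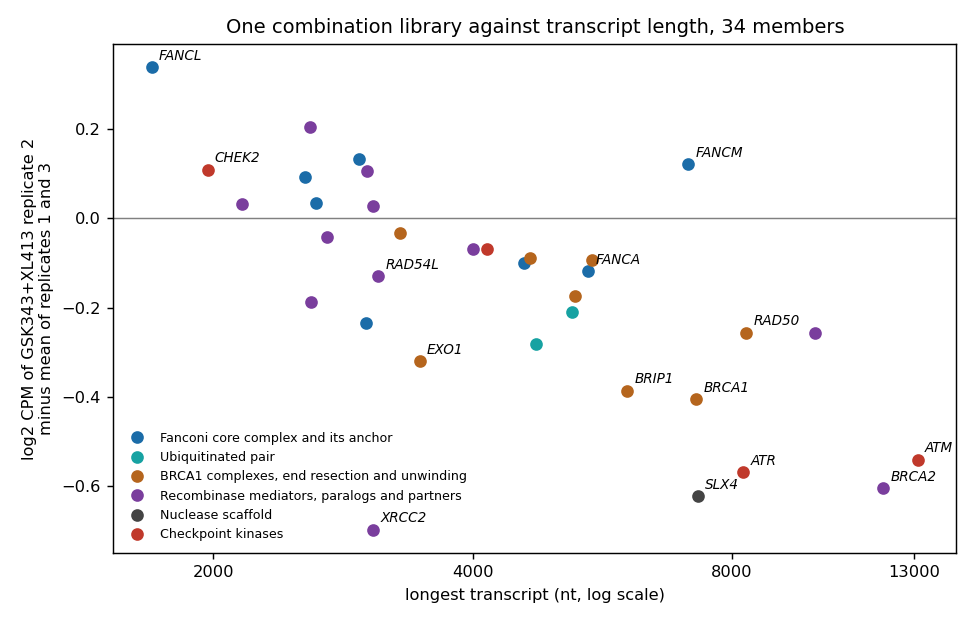
Deviation of replicate 2 of GSK343+XL413 from the mean of replicates 1 and 3 (vertical axis, log2 CPM) against the length of the longest transcript (horizontal axis, nucleotides, log scale) for the 34 members, coloured by role. Long transcripts such as BRCA2 (−0.61) and ATM (−0.54) lie low, and FANCL (0.34), the shortest, lies highest.

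**Figure D5:**
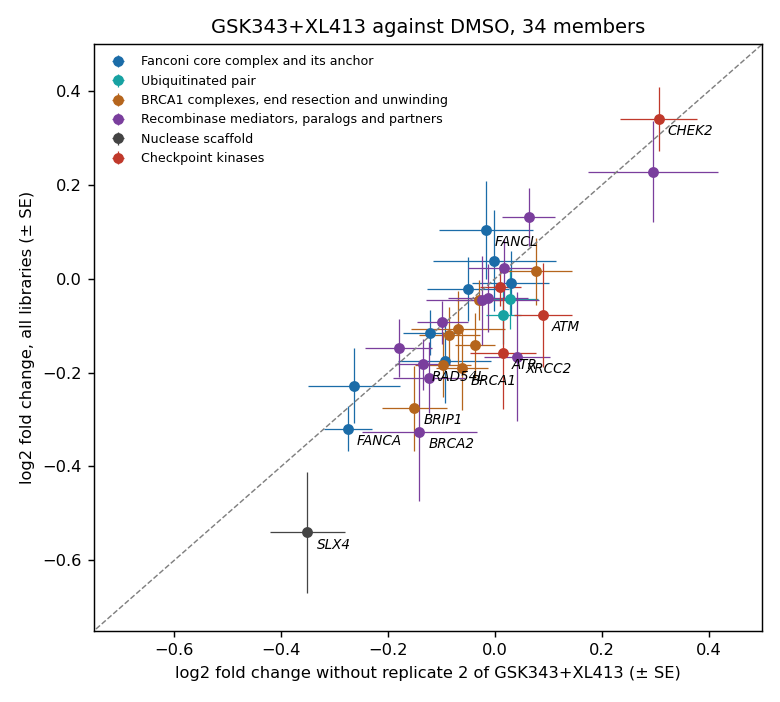
Log2 fold change of GSK343+XL413 against DMSO with all libraries (vertical axis) and without replicate 2 of GSK343+XL413 (horizontal axis), each ± SE, for the 34 members. Points under the dashed line of equality, such as SLX4, BRCA2 and ATR, are lower with the library; FANCA and CHEK2 lie near the line.

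The comparisons of XL413 and of GSK343 with DMSO share the DMSO libraries with the comparison above. With XL413 against DMSO, 0 of the 34 members were called by edgeR, where 0.427% of all genes were. At an unadjusted p under 0.05 there were 3 members, CHEK2, FANCA and RAD51B, against 13.7% of all genes. DESeq2 called 1, CHEK2, and limma-voom 0. The log2 fold change of CHEK2 was 0.29 with SE 0.0681 (adjusted p = 0.0858) and that of FANCA −0.13 with SE 0.0478 (adjusted p = 0.267). RAD51B, a paralog of the recombinase, had 4.29, 4.17 and 3.66 CPM with XL413, against 3.24, 3.64 and 3.19 CPM with DMSO, and a change of 0.26 (SE 0.108, adjusted p = 0.303). Its libraries did not overlap, by a margin smaller than the spread within either group. The XL413 libraries lay above all DMSO libraries for 7 members, FANCD2, FANCI, BRCA1, RAD51B, BLM, CHEK1 and CHEK2, and below them for 4, FANCA, RAD51D, NBN and SLX4. Over all genes these shares were 11.9% and 16.2%. The median estimate of the members was −0.01. When replicate 2 of GSK343+XL413, which is in neither group but adds to the shared estimate of the spread, was left out, CHEK2 (0.30, adjusted p = 0.0176) and SLX4 (−0.24, adjusted p = 0.0403) passed the test, against 4.84% of all genes.

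With GSK343 against DMSO, 0 of the 34 members were called by edgeR, DESeq2 or limma-voom, against 1.17% of all genes by edgeR. At an unadjusted p under 0.05 there were 3, RAD54L, CHEK1 and FANCG, all lower, against 14.2% of all genes. For RAD54L the log2 fold change was −0.17 with SE 0.0548 (adjusted p = 0.167). CHEK1, the kinase downstream of ATR, had 74, 71.9 and 73.1 CPM with GSK343, against 75.9, 79 and 78 CPM with DMSO, and a change of −0.09 (SE 0.0411, adjusted p = 0.348). The CHEK1 groups did not overlap, by a gap smaller than the range within either group. FANCG, a core complex subunit, had 43.4, 47.2 and 44 CPM with GSK343, against 49.4, 49.6 and 45.5 CPM with DMSO, with a change of −0.10 (SE 0.0476, adjusted p = 0.35), and its groups overlapped. The GSK343 libraries lay below all DMSO libraries for 9 members, FANCA, FANCE, BRCA1, RAD54L, XRCC3, BRIP1, CHEK1, EXO1 and SLX4, and above them for 0, against 14% and 11.2% of all genes. The members' median was −0.05, with 23 of 34 estimates below 0. Without replicate 2 of GSK343+XL413, RAD54L passed the test (−0.17, adjusted p = 0.0482), against 6.15% of all genes.

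Adding GSK343 to XL413 gave no called member with edgeR, against 0.784% of all genes. DESeq2 called 1, FANCA, and limma-voom 0. At an unadjusted p under 0.05 there were 9 members (26.5%), all lower, against 15% of all genes in both directions together. The members' median was −0.0854, with 29 of 34 estimates below 0. Without replicate 2 of GSK343+XL413 the median was −0.0472, with 23 of 34 below 0. For FANCA the change was −0.19 with SE 0.0481 on the log2 scale (adjusted p = 0.0928). BRCA1 had 83.8, 64.9 and 88.4 CPM with GSK343+XL413, against 94.1, 91.2 and 96.3 CPM with XL413. All 3 BRCA1 values were below those with XL413, and the lowest was again that of replicate 2. Its change was −0.25 (SE 0.0881, adjusted p = 0.219), and −0.13 without that library.

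Adding XL413 to GSK343 lowered FANCA and raised CHEK2, 2 of 34 members, against 0.984% of all genes. FANCA changed by −0.23 on the log2 scale (SE 0.048, adjusted p = 0.0398), where 0.337% of all genes were called lower. CHEK2 changed by 0.32 (SE 0.0675, adjusted p = 0.0428), where 0.648% of all genes were called higher. The groups did not overlap for either gene. Both calls were close to the threshold, and leaving out a library in turn ended each of them in 10 of 12 fits. A fit of the 2 groups alone called 0 genes of the whole table.

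The interaction, the XL413 effect with GSK343 minus the XL413 effect without it, was called for 0 of the 34 members and 0% of all genes by edgeR. DESeq2 and limma-voom also called 0 members. At an unadjusted p under 0.05 there were 0 members, against 2.67% of all genes. The 2 members with the smallest p were RAD50, the ATPase of the MRE11 complex, and BRCA2. RAD50 had 65.3, 54.9 and 65.8 CPM with GSK343+XL413, 70.9, 64.4 and 69.2 with XL413, 71.6, 71.3 and 77.9 with GSK343, and 66.8, 71.3 and 73 with DMSO. Its interaction was −0.20 (SE 0.098, 95% interval −0.415 to 0.00754), and −0.13 without replicate 2 of GSK343+XL413. That of BRCA2 was −0.37 (SE 0.206), and −0.20 without it. For FANCA the 95% interval was −0.255 to 0.0372, so that an effect of the compounds together beyond the sum of their effects was not detectable at this precision.

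Averaged over cells with and without GSK343, the XL413 effect was called for 3 members, against 9.12% of all genes. CHEK2 was higher (0.31, SE 0.048, adjusted p = 0.00358), where 4.71% of all genes were higher. FANCA (−0.18, SE 0.0339, adjusted p = 0.00926) and SLX4 (−0.32, SE 0.0899, adjusted p = 0.0415) were lower, where 4.41% were lower. Without replicate 2 of GSK343+XL413, these 3 were called with FANCD2, FANCI and CHEK1, the added ones higher, against 13.8% of all genes. The averaged GSK343 effect was called for FANCA (−0.14, SE 0.0339, adjusted p = 0.0292) and RAD54L (−0.15, SE 0.0388, adjusted p = 0.0341), both lower, against 6.55% of all genes called and 3.37% called lower. Without replicate 2 of GSK343+XL413, BRCA1 and XRCC3 joined them as lower, against 12.9% of all genes. Leaving out each library in turn, CHEK2 and FANCA kept their averaged XL413 calls in 12 of 12 fits. SLX4 lost its averaged XL413 call in 8 of 12 (adjusted p up to 0.0988). In the averaged GSK343 effect RAD54L lost its call in 8 of 12 (adjusted p up to 0.0855) and FANCA in 5 of 12 (up to 0.0728). Upper quartile scaling also ended the averaged GSK343 calls of FANCA (adjusted p = 0.0508) and RAD54L (adjusted p = 0.0592), and no filter that of RAD54L (adjusted p = 0.0503). Whether the 2 averaged effects of a gene differ was not tested.

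Of a further 56 genes of the pathway, 4 fell and 1 rose with GSK343+XL413 against DMSO (8.93%, against 13.9% of all genes). The 56 include SLX1A and SLX1B, which had the same mean and SD in every group and are not independent. Neither was called. USP1, which removes ubiquitin from FANCD2, fell by 0.19 on the log2 scale (adjusted p = 0.0155), and FAAP100, a partner within the core complex, by 0.19 (adjusted p = 0.029). TOP3A, the topoisomerase that acts with BLM, fell by 0.39 (adjusted p = 0.028), and by 0.22 without replicate 2. Of the trimer that coats single-stranded DNA, RPA1 fell by 0.13 (adjusted p = 0.0407) and RPA3 rose by 0.40 (adjusted p = 0.00564). RPA1 was not called without replicate 2 (adjusted p = 0.0623). With either compound alone against DMSO, 0 of the 56 were called. Adding XL413 to GSK343 raised ATRIP, the partner of ATR, by 0.28 (adjusted p = 0.0441), and RPA3, 2 of 56 or 3.57%, against 0.984% of all genes. In the averaged XL413 effect 5 rose and 3 fell (14.3%, against 9.12% of all genes). In the averaged GSK343 effect 3 fell, RECQL4, CDC25A and RPA1 (5.36%, against 6.55%).

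Genes of cell cycle phases moved in the same comparisons and are given beside the members. Of 26 G2/M genes, XL413 against DMSO raised 5 (19.2%, against 0.427% of all genes), among them HMMR by 0.56 and CDK1 by 0.43 on the log2 scale, and lowered 0. GSK343 against DMSO lowered 3, PLK1, AURKA and CDC20, and raised 0 (11.5%, against 1.17%). With GSK343+XL413 against DMSO 8 rose and 6 fell (53.8%, against 13.9%), and against GSK343 11 rose and 1 fell (46.2%, against 0.984%). The averaged XL413 effect raised 13 of the 26 and lowered 4 (65.4%, against 9.12%), and the averaged GSK343 effect lowered 6 and raised 0 (23.1%, against 6.55%). Of the G2/M calls in the averaged effects, those of XL413 went in both directions and those of GSK343 downward. The 4 lowered in the averaged XL413 effect were MKI67, CENPE, CENPF and ASPM. Their libraries varied widely with GSK343+XL413, with SDs of 107, 7.41, 74.5 and 37.1 CPM, against 15.7, 2.32, 15.3 and 7.19 CPM with XL413. Their means were also lower with XL413 alone (407.3, 54.2, 370.2 and 205.9 CPM) than with DMSO (547.1, 64.06, 425.9 and 225.7 CPM). None of these genes was called in XL413 against DMSO. Over the 26 genes the median averaged XL413 effect was 0.113, and 0.124 without replicate 2 of GSK343+XL413.

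Of 28 G1/S and replication genes, XL413 against DMSO raised 1, MCM3 (3.57%, against 0.427% of all genes). GSK343 lowered 5, MCM4, MCM7, RRM2, UHRF1 and CHAF1A (17.9%, against 1.17%). With GSK343+XL413 against DMSO 1 rose and 5 fell (21.4%, against 13.9%), and against GSK343 2 rose, MCM3 and MCM7 (7.14%, against 0.984%). The averaged XL413 effect raised 10 and lowered 3 (46.4%, against 9.12%), and the averaged GSK343 effect lowered 11 and raised 0 (39.3%, against 6.55%). The part of these changes in the values of the members was not tested. Of 12 end joining genes 0 were called in any of the 8 comparisons, and of 20 p53 targets GSK343+XL413 against DMSO raised 3, TP53I3, SESN1 and GDF15 (15%, against 13.9% of all genes). The mRNA of CDC7 was not called in the 3 comparisons with DMSO (0.07, SE 0.0556, with GSK343+XL413), and that of EZH2 fell by 0.15 with GSK343+XL413 (adjusted p = 0.0329). DBF4B was also called lower with GSK343+XL413, at a mean of 18.8 CPM against 22.85 CPM with DMSO. These calls were 2 of 7 compound targets and partners (28.6%, against 13.9% of all genes).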

How the data were processed

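RNA of 12 A375 libraries was measured by poly-A RNA-seq with a dUTP strand-specific protocol, per the labels' protocols. The deposited values are expected counts per gene, which are estimated read counts; the submitters' processing notes name RSEM 1.2.15, Bowtie2 2.1.0 and hg38. In a library, 10.5% to 11.1% of values were not whole. Annotation, strand setting and read filters: not given in the sources used here. Reads shared by overlapping genes are split by estimate, which can shift their values.

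After rounding, the counts were fitted with edgeR 4.0.16 (R 4.3.3), using filterByExpr (minimum count 10, minimum total 15), TMM scaling and 1 quasi-likelihood model for all 12 libraries, with 8 residual degrees of freedom. The contrasts were each treatment against DMSO, the combination against each compound, the interaction and the 2 averaged effects. P-values were two-sided and adjusted by Benjamini-Hochberg over 15443 genes, and an adjusted p under 0.05 was a call. SE was taken as the absolute log2 fold change over the root of F, and CPM on effective library sizes. Positions and the longest basic transcript came from GENCODE 29, where 23872 names matched directly and 727 through an older symbol. Promoters came from RefSeq.

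The members, lists and tests were chosen with earlier results of these data known. Members named with values per library are those called in any contrast and those with the smallest p in a comparison. The highest and lowest of a role are given with their level per kb in DMSO cells. The split by E2F word, the share of coding promoters and the counts of groups that do not overlap were added after values had been seen. Alternatives were RLE and upper quartile scaling, no filter, a filter of 5 CPM in 3 or more libraries, DESeq2 (version 1.42.0), voom of limma 3.58.1, the groups compared alone, the replicate number as a block, a transcript length correction, and leaving out each library. The code was tested on simulated data with 200 changed genes. Its pass criterion was replaced after the first version had failed, because fewer changed genes were recovered than it required. The fitting code was not changed. The simulation used the same spread for all genes, with no deviating library and no length trend. It therefore does not show the sensitivity in these data.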

Additional observations from a re-analysis of the deposited data

How the results depend on the processing

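Counts of called members depended on the setting in several comparisons. A fit of only the groups compared gave 4 in XL413 against DMSO (CHEK2, FANCD2, BLM and SLX4, against 0), 1 in GSK343+XL413 against DMSO (FANCA, against 4) and 0 in GSK343+XL413 against GSK343 (against 2). A transcript length correction gave 1 with XL413 against DMSO, 7 with GSK343+XL413 against DMSO, 1 with GSK343+XL413 against XL413, 6 in the averaged XL413 effect and 8 in the averaged GSK343 effect. Over all genes the length correction also gave more calls in these comparisons, 469 (against 66), 2913 (against 2152), 449 (against 121), 2155 (against 1408) and 1994 (against 1012) in that order. DESeq2 gave 1 with XL413 against DMSO, 1 with GSK343+XL413 against XL413, 4 with GSK343+XL413 against GSK343 and 4 in the averaged GSK343 effect, where over all genes it called 245, 294, 582 (against 152) and 1280. In that effect, upper quartile scaling gave 0 and no filter 1. Without leaving out a library, calls over all genes ran from 46 (replicate block) to 1394 (groups compared alone) with XL413 against DMSO, where 66 were reported, from 108 (replicate block) to 581 (length correction) with GSK343, where 180 were, and from 657 (groups compared alone) to 2913 (length correction) with GSK343+XL413, where 2152 were. No pairing of the libraries by replicate number was detected. Of 18 same-numbered pairs, 2 had a correlation of deviations over 0.1 (range −0.155 to 0.138), and the other pairs ran from −0.161 to 0.141. The replicate block gave 0 members with GSK343+XL413 against GSK343, where it called 119 of all genes. It gave 5 members with GSK343+XL413 against DMSO, where it called 2065 of all genes, and 3 in the averaged XL413 effect.

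Leaving out each library in turn gave 0 to 2 members with XL413 against DMSO, 0 to 1 with GSK343, 2 to 6 with GSK343+XL413, 0 to 2 with GSK343+XL413 against GSK343, 2 to 6 in the averaged XL413 effect and 0 to 5 in the averaged GSK343 effect. The calls over all genes varied widely in the same fits. They ran from 16 to 755 with XL413 against DMSO, 37 to 958 with GSK343 and 850 to 2610 with GSK343+XL413. With GSK343+XL413 against GSK343 they ran from 35 to 348. With GSK343+XL413 against XL413 and in the interaction these fits gave 0. The averaged GSK343 effect lost both its calls without DMSO replicate 1 or 2, XL413 replicate 1 or 2, or GSK343 replicate 1. SLX4 lost its averaged XL413 call under the replicate block (adjusted p = 0.0522). The cause was not tested.

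Of the recomputed changes of named members, 697 kept direction and side of the threshold, 64 lost and 10 gained a call, and 12 changed sign, all of them small and uncalled. Over the leave-outs, the change of CHEK2 with GSK343 against DMSO ran from −0.0157 to 0.0928 and that of RAD54L with GSK343+XL413 against GSK343 from −0.0607 to 0.0313. The interaction ran from −0.0210 to 0.0710 for RAD54L, from −0.0466 to 0.0495 for CHEK2 and from −0.288 to 0.0267 for SLX4. The length correction gave −0.0136 for the interaction of CHEK2. At this depth the median SE of a member was 0.0706 on the log2 scale in GSK343+XL413 against DMSO, so changes of that size were not detectable. Estimates well above it were also not called by edgeR, such as BRIP1 (−0.28, SE 0.0906, adjusted p = 0.0598) and FANCM (−0.23, SE 0.0802, adjusted p = 0.0755).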
